A study of Homo sapiens with 4 samples.

Results

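The zinc finger gene clusters of distal 19q are a pair of stretches near the end of the long arm of human chromosome 19, taken here as 52.3 to 54.03 Mb (the proximal cluster) and 56 to 59.12 Mb (the distal cluster) in hg19. Their members are the methylated regions, called peaks, that overlap either stretch in the deposited lists of the PKCl/i knockout and of the control. The knockout list had 930 such peaks of 296521 in all, and the control list had 787 of 261657. Of the knockout members 398 lay in the proximal and 532 in the distal cluster, against 329 and 458 in the control. The control region of the imprinted gene PEG3, at 57.346 to 57.355 Mb, was left out with 2 knockout and 2 control peaks. Chromosome 19 at 45 to 51.3 Mb served as the comparison stretch, with 1696 knockout and 1400 control peaks.

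Methylated DNA was immunoprecipitated with an antibody against methylated cytosine and sequenced (MeDIP-seq) in C42B cells, a castration-resistant derivative of the LNCaP prostate cancer line. The groups were cells labelled PKCl/i KO (sgPKCl/i), with a guide RNA against PKCλ/ι (gene PRKCI), an atypical protein kinase C, and cells labelled sgC (WT), with a control guide. All were untreated and harvested 48 h after plating at about 70% confluency, and the labels do not say whether either line is a single clone. Each genotype had 1 immunoprecipitated and 1 input library, so no difference below has a replicate check and no test was made. The lists hold no expression values, so the labelled cell type could not be checked against markers.

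Zinc finger genes of this kind arose by tandem duplication, and many encode a KRAB domain followed by an array of C2H2 zinc fingers. The fingers bind specific DNA sequences, often in transposable elements, and the KRAB domain recruits the corepressor TRIM28, which brings in silencing enzymes and DNA methylation. In many cell types the bodies of these genes are themselves methylated and marked as heterochromatin, and in tumours CpG-rich promoters within such clusters are often methylated. The antibody is directed against methylated cytosine, which in these cells is chiefly at CpG.

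In RefSeq gene order, 66 protein-coding genes lie between PEG3 and the end of the long arm, and 51 of them have zinc finger symbols (ZNF, ZSCAN, ZIM, ZIK, ZFP, ZBTB or MZF). The first of them after PEG3 is ZIM3, a KRAB zinc finger gene, and TRIM28 itself is among the last. Promoter sequences were matched for 47 of the 51. Within 300 bases of promoter (250 before and 50 after the start) these held a median of 21 CpG (quartiles 16 and 29.5, range 2 to 42), against 22 (quartiles 8 and 32) over 15843 protein-coding promoters. The poorest and the richest promoter are given here with each CpG in capitals, because they mark the ends of the CpG range among these promoters. They come from RefSeq on build GRCh38.p14, plus strand, 5′ to 3′, and were not placed on the hg19 lists, so whether either promoter holds a peak was not tested. ZSCAN4, known for its burst of expression in the early embryo, has 2 CpG, and ZSCAN1 has 42.
ZSCAN4: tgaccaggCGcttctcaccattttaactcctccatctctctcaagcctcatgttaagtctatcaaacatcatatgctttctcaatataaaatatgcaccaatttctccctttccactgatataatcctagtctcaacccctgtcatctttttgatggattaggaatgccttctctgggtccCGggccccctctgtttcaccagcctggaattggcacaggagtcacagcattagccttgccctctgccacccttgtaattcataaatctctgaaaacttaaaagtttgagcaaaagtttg
ZSCAN1: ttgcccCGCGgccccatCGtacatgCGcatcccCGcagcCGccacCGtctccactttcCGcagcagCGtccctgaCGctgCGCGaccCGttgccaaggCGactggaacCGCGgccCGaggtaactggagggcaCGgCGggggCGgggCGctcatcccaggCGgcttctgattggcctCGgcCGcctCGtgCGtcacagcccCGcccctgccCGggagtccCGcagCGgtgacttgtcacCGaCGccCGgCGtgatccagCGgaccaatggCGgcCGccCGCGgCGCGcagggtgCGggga

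Both clusters were rich in methylated regions, though less so than the comparison stretch in either genotype. The knockout had 192 peaks per Mb in the clusters (exact Poisson interval 180 to 205), against 269 (257 to 282) in the comparison stretch, a ratio of 0.714 (0.658 to 0.773). The control had 163 per Mb (151 to 174) against 222 (211 to 234), a ratio of 0.732 (0.670 to 0.799). All intervals here are at the 95% level and cover counting error only. The deficit was larger in the distal cluster, with a ratio of 0.635 in the knockout and 0.662 in the control, than in the proximal one, with 0.855 and 0.856. The distal span includes a stretch of 373 kb in which neither list held a peak, and the ratio without it was not determined. Peaks covered 12.4% of the clusters in the knockout and 9.65% in the control, against 18.0% and 13.2% of the comparison stretch. The deficit was smaller among peaks with a −log10 q of at least 10, at ratios of 0.805 in the knockout and 0.904 (0.799 to 1.02) in the control, where the interval includes 1. The zinc finger cluster on the short arm, taken as 20 to 24 Mb, was sparser than these, with 59.5 peaks per Mb in the knockout and 43.5 in the control.

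The knockout list had more members than the control list, but its library was also deeper. The floor, which is the lowest local background and the caller's genome-wide mean pileup, was 4.42 fragments in the knockout and 2.92 in the control, a ratio of 1.51. In number of peaks, knockout over control, the ratio was 1.18 (1.07 to 1.30) in the clusters, 1.21 (1.13 to 1.30) in the comparison stretch and 1.13 over the genome. It was not the same everywhere, at 0.997 (0.850 to 1.17) between the clusters and 1.37 (1.12 to 1.67) in the cluster on the short arm. Covered length had ratios of 1.29 in the clusters, 1.36 in the comparison stretch and 1.17 over the genome. Depth and a gain of methylated regions cannot be told apart in these counts.

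Peaks of the distal cluster stood higher above the mean than those of the proximal cluster or of the comparison stretch, but no higher than those between the clusters. Pileup is the number of fragments over a peak's summit and was divided by the library's floor. The median was 8.82 times the floor in the knockout and 8.90 in the control in the distal cluster. In the proximal cluster the medians were 7.23 and 7.87, and in the comparison stretch 6.78 and 7.18. Between the clusters they were 9.27 in the knockout and 8.90 in the control, and over the genome 8.14 and 8.55. The local background was higher in the distal cluster too, with medians of 1.28 times the floor in the knockout and 1.24 in the control, against 1.06 and 1.02 in the proximal cluster. The authors' fold, pileup over local background, differed less between the clusters. Its medians were 5.45 in the knockout and 5.55 in the control distally, and 5.24 and 5.35 proximally.

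Members of the distal cluster were longer than those of the proximal cluster. Their median length was 516 bp in the knockout and 489.5 bp in the control, against 452 and 434 bp in the proximal cluster. Peaks of 1 kb or longer made up 16.5% (13.5 to 20.0) of distal members in the knockout and 13.3% (10.3 to 16.8) in the control, against 9.55% (6.85 to 12.9) and 6.69% (4.24 to 9.95) proximally. Distal lengths were close to those of the comparison stretch, with medians of 503 bp in the knockout and 476.5 bp in the control and shares of 15.2% (13.5 to 17.0) and 10.5% (8.94 to 12.2). Peaks between the clusters were longer, with medians of 566 and 564.5 bp. The longest was a knockout peak of 4397 bp at chr19:56656176-56660572, which spanned 3 control peaks. In the control the longest member, 2990 bp at chr19:56161922-56164911, overlapped 1 knockout peak. The proximal maximum was 2878 bp in the knockout, at chr19:53080741-53083618, where the control had 2 peaks, and 2514 bp in the control, at chr19:53227412-53229925.

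Methylated regions were unevenly spread along the clusters, with dense and sparse windows in the same places in both genotypes. Over the 12 windows of 0.25 Mb that lie wholly in the distal cluster, peaks numbered 0 to 97 in the knockout and 0 to 94 in the control. The 6 proximal windows were more even, with 41 to 83 knockout and 28 to 76 control peaks. The distal window with most peaks, at 58.75 to 59 Mb, was covered to 29.4% in the knockout and 23.9% in the control. By contrast, from chr19:56218708 to 56591862, a stretch of 373 kb, neither list held a peak. Knockout peaks outnumbered control peaks in 9 distal windows and in all 6 proximal ones, and control peaks were more numerous in 2 distal windows. The nearest peaks at the start of the proximal cluster had pileups of 27 inside and 49 outside in the knockout, and 19 inside and 21 outside in the control. The outside peaks were different regions, chr19:52222368-52223078 in the knockout and chr19:52217014-52217314 in the control. At the end of the proximal cluster the nearest peaks had 7.23 times the floor inside and 11.8 outside in the knockout. In the control they had 7.18 inside and 10.9 outside. At the start of the distal cluster the values were 17.2 inside and 19.9 outside in the knockout, and 16.8 and 11.6 in the control. The inside peaks were different regions, chr19:56000581-56001082 in the knockout, with no control peak, and chr19:56001770-56002741 in the control. At the control's region the knockout had a pileup of 90, against 49 in the control, a log2 ratio of 0.28. Neither list had a peak beyond the end of the distal cluster, and the last peaks of the lists were different regions. The last knockout peak, chr19:59117811-59118178, had 17.9 times the floor and no control peak. The last control peak, chr19:59098739-59099078, had 6.16 times the floor. The knockout had a peak there too, with a pileup of 30, against 18 in the control, a log2 ratio of 0.14.

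**Figure D1:**
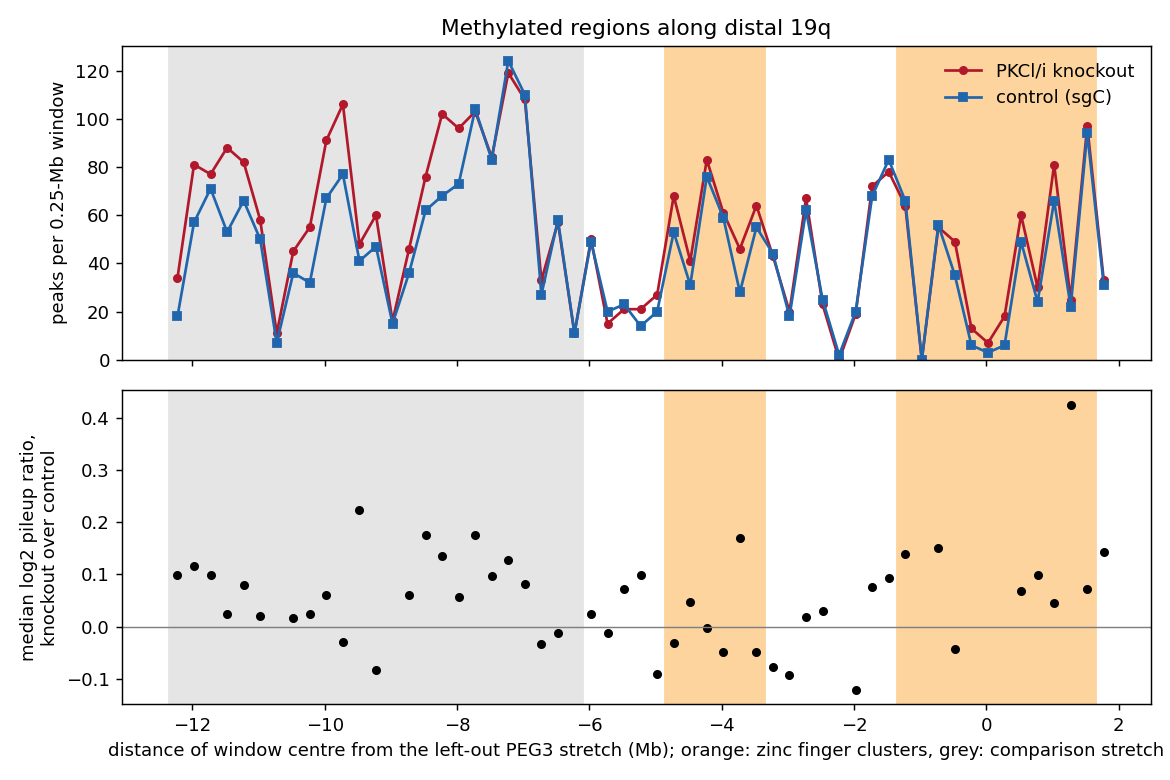
The upper panel plots peaks per 0.25-Mb window for the knockout (red circles) and the control (blue squares), and the lower panel the median log2 pileup ratio in windows with at least 10 pairs, against distance from the PEG3 stretch in Mb. Both lists rise and fall together, and the empty window in the distal cluster is at 0 in both.

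Most members had a counterpart in the other genotype. Of the 930 knockout members 610 overlapped a single control peak that overlapped no other, 72 overlapped control peaks in other ways and 248 (26.7%, exact binomial interval 23.8 to 29.6) overlapped none. That last share was 23.9% over the whole knockout list. Among the 787 control members 610 were in such pairs, 108 overlapped otherwise and 69 (8.77%, 6.89 to 11.0) had no counterpart, against 12.1% of the whole control list. The knockout interval thus includes 23.9%, and the control share lay below that of the genome.

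Strong peaks, those with a −log10 q of at least 10, were shared more often. In the knockout 115 of 693 strong members (16.6%, 13.9 to 19.6) lacked a control peak, against 14.9% over the genome and 17.8% (15.6 to 20.1) in the comparison stretch. In the control 7 of 442 (1.58%, 0.639 to 3.24) lacked a knockout peak, against 3.24% over the genome and 1.26% (0.545 to 2.46) in the comparison stretch. Both shares differed from those of the comparison stretch by less than the width of the intervals. Other parts of the chromosome differed more. Between the clusters 15 of 238 strong knockout peaks (6.30%, 3.57 to 10.2) lacked a control peak. In the cluster on the short arm 44 of 163 (27.0%, 20.3 to 34.5) did. The control shares there were 4.02% (1.75 to 7.77) and 4.04% (1.11 to 10.0) in that order.

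The knockout share was smaller at the control's depth. When knockout pileups and backgrounds were divided by the ratio of floors and significance was recomputed, 36 of 455 strong knockout members (7.91%, 5.60 to 10.8) lacked a control peak, against 6.02% over the genome and 6.87% (5.07 to 9.05) in the comparison stretch. The corresponding control share stayed at 7 of 442, against 3.27% over the genome. At this depth the distal cluster had 28 of 287 (9.76%, 6.58 to 13.8) and the proximal cluster 8 of 168 (4.76%, 2.08 to 9.17) knockout-only strong peaks, and the intervals overlap. The interval over both clusters includes the genome's 6.02%, but the distal interval lies above it. Without the 2 knockout-only runs described below, the distal share was 21 of 280 (7.50%, 4.70 to 11.2), an interval that includes 6.02%.

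Regions found in 1 list only were more frequent among weak peaks. Of knockout members under 5 times the floor 62.7% (50.7 to 73.6) had no control peak, and of those at 10 times the floor or more 10 of 280 (3.57%, 1.73 to 6.47). Over the genome these knockout shares were 61.3% and 2.83%. The control shares were 41.7% (22.1 to 63.4) in the weakest class and 0 of 252 in the strongest, which allows a share of up to 1.19% by the rule of 3 counts in 252 and 1.45% by the exact interval. Over the genome these control shares were 38.6% and 1.10%. Between 5 and 7 times the floor, the knockout share was 49.4% (43.1 to 55.7) in the clusters. There the comparison stretch had 42.2% (38.0 to 46.5) and the genome 46.0%. Between 7 and 10 times the floor, the share was 20.5% (16.2 to 25.3) in the knockout and 4.59% (2.47 to 7.73) in the control. In that class the comparison stretch had 13.9% (11.0 to 17.2) in the knockout, below the clusters, with intervals that overlap, and the genome had 18.1%. The control share in that class was 3.18% (1.79 to 5.19) in the comparison stretch and 9.19% over the genome. Of the 10 knockout-only members at 10 times the floor or more, 8 had a local background of at least 2 times the floor. The corresponding share among all knockout members that high, or over the genome, was not determined.

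**Figure D2:**
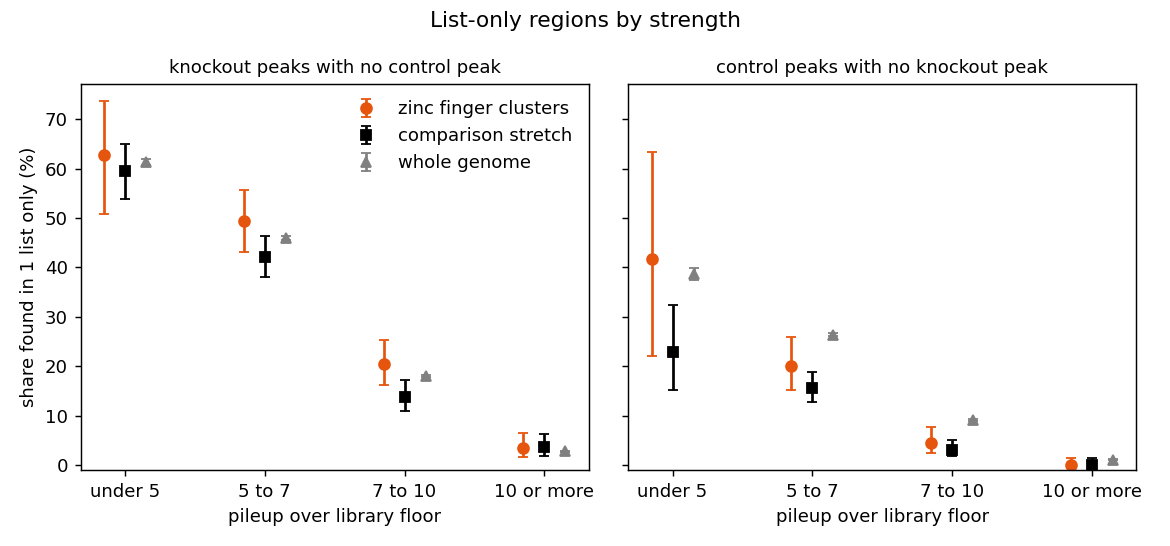
Share of peaks found in 1 list only, in percent with exact 95% intervals, by pileup over the library floor, for knockout peaks (left) and control peaks (right) in the zinc finger clusters, the comparison stretch and the genome. The cluster share fell with strength to 3.57% in the knockout and 0 in the control.

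The longest run of knockout-only regions in the clusters lay directly beside PEG3. Telomeric of it, 13 consecutive knockout peaks from chr19:57375616 to 57708416, a span of 333 kb, overlapped no control peak. The control list held no peak at all for 362 kb there, between its last PEG3 peak and the next at chr19:57715286-57716245. The protein-coding genes after PEG3 in RefSeq order begin, after a locus with no gene name, with USP29, a ubiquitin peptidase gene of the imprinted domain, ZIM3, the homeobox gene DUXA and ZNF264, though their hg19 positions were not used here. This run was singled out after its values were seen.

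These 13 regions were of moderate strength. Their pileups ran from 19 to 54 with a median of 30, which is 4.30 to 12.2 times the floor with a median of 6.78. Their folds ran from 3.01 to 6.09, and 8 of the 13 were strong. At chr19:57454049-57454497 the pileup was 51 (38.0 to 67.1) and the fold 6.09, and at chr19:57564723-57565146 they were 32 (21.9 to 45.2) and 6.08. The highest pileup, 54 (40.6 to 70.5) at chr19:57610689-57611177, stood on a background of 2.77 times the floor and had a fold of 4.15. Scaled to the control's depth, all 13 stayed past the lowest −log10 p of the control list, which was 3.24, as did each of the 930 knockout members. Only 2 had a background at the floor, and the part of the background in this run was not tested.

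The PEG3 stretch itself, which is not a member, had a knockout peak of 2020 bp with a pileup of 107 and another of 39, against control peaks with pileups of 47 and 32. Just telomeric of the run, regions were found in both genotypes again. At chr19:57717491-57718031 the pileup was 61 in the knockout, against 54 in the control, or 13.8 and 18.5 times the floors.

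**Figure D3:**
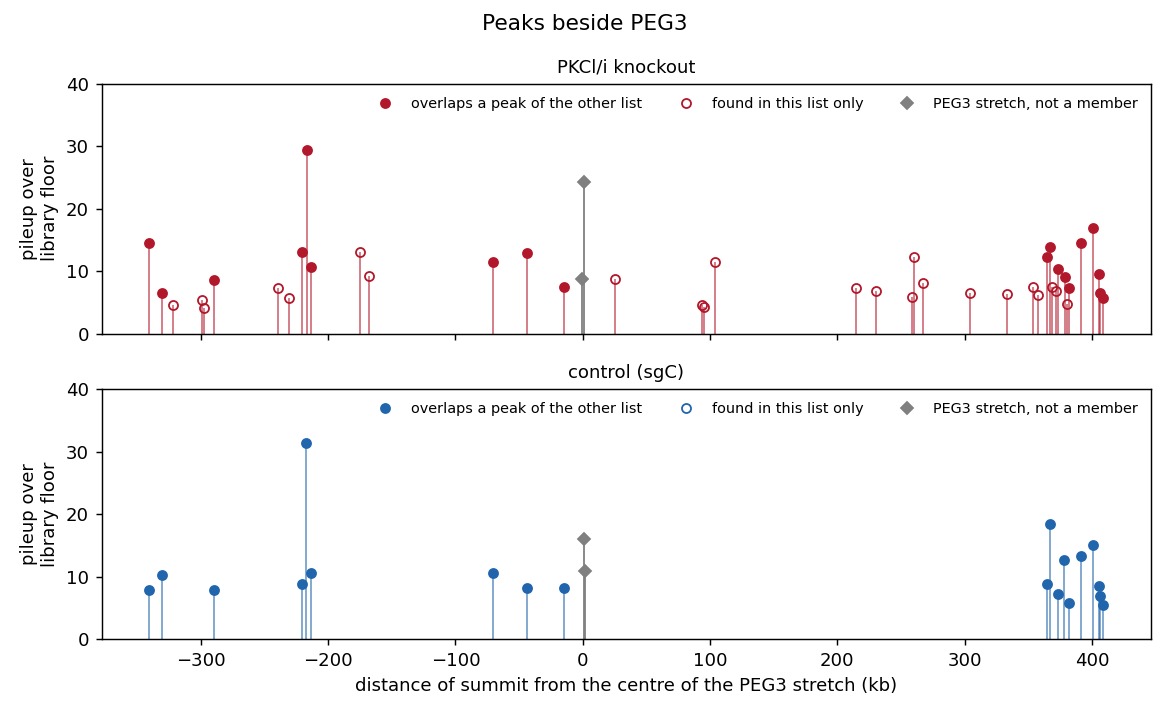
Each stem is a peak, placed by the distance of its summit from the centre of the PEG3 stretch in kb and as high as its pileup over the library floor, for the knockout (top) and the control (bottom). Open circles are peaks found in 1 list only, and the first 13 open knockout circles right of PEG3 face a stretch without a control peak.

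Another such run lay nearer the telomere. From chr19:58448182 to 58492644, a span of 44.5 kb, 8 consecutive knockout peaks had no control counterpart, and 6 of them were strong. Their pileups were 4.07 to 9.27 times the floor, their folds 3.50 to 7.36, and their background at most 1.15 times the floor. The strongest, at chr19:58452290-58452719, had 41 fragments and a 7.36-fold enrichment. All 8 stayed past the control list's lowest −log10 p when scaled to its depth, as did each of the 930 knockout members. In the 2 runs together 14 knockout-only peaks were strong as deposited, and 7 were strong at the control's depth. No other run in the clusters exceeded 4 knockout peaks, the longest in the comparison stretch had 5, and control-only runs reached 3 in the proximal and 2 in the distal cluster. Runs outside these stretches were not examined, so how usual such lengths are over the genome is not known. Over the genome 23.9% of knockout peaks overlapped no control peak.

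Among regions found in both lists, knockout and control differed little. Over the 610 pairs the median log2 ratio of pileup, knockout over control and scaled by the floors, was 0.04 (order-statistic interval 0.01 to 0.07), with quartiles of -0.17 and 0.27. Over all 206556 pairs of the genome it was 0.04. Pairs at least 1.5-fold higher in the knockout numbered 40 (6.56%), against 5.14% over the genome, and those at least 1.5-fold lower 14 (2.30%), against 3.6%. Among the 347 pairs strong in both lists the excess was absent, with 9 higher (2.59%), against 2.94% over the genome, and 9 lower (2.59%), against 2.37%. At 2-fold the numbers were 5 higher, where the genome had 0.445%, and 1 lower, where it had 0.14%. Scaling by the floors would remove a shift common to the whole genome.

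The 2 clusters had different medians. It was 0.09 (0.05 to 0.14) over 342 distal pairs and -0.02 (-0.06 to 0.02) over 268 proximal pairs, a difference of 0.11 (0.06 to 0.17). In the comparison stretch the median was 0.08 (0.05 to 0.10) over 1040 pairs, so the distal cluster differed from it by 0.02 (-0.03 to 0.06) and the proximal cluster by -0.10 (-0.14 to -0.05). The mean log2 ratio of local background was 0.13 (SD 0.37) distally and 0.08 (SD 0.36) proximally, a small difference beside these SDs. In the comparison stretch it was 0.12 (SD 0.32) and over the genome 0.11 (SD 0.36). The part of the background in the difference of medians was not tested. With the authors' folds in place of pileups the medians were 0.08 distally and 0.03 proximally. Centromeric of PEG3 the distal cluster had a median of 0.11 (0.04 to 0.17) over 115 pairs and telomeric of it 0.08 (0.04 to 0.14) over 227. These intervals cover the scatter of pairs within 2 libraries, not replicate error.

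**Figure D4:**
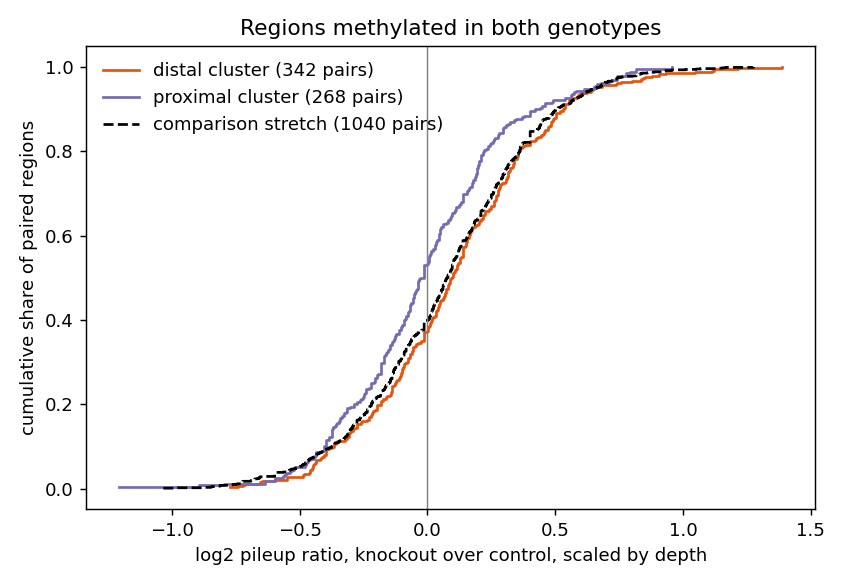
Cumulative share of paired regions by their log2 pileup ratio, knockout over control, scaled by depth, for the distal cluster, the proximal cluster and the comparison stretch. The proximal curve lies left of the other curves around its median of -0.02, and the distal curve lies close to that of the comparison stretch.

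The highest pileup of each list in each cluster belonged to a region found in both. By mean pileup over the floors, the leading distal pair was chr19:58966094-58968429 (knockout coordinates), with a pileup of 157 in the knockout and 98 in the control, or 35.5 and 33.5 times the floors. Its log2 ratio was 0.08 (-0.29 to 0.46), an interval of counting error that includes 0. The leading proximal pair was chr19:52390585-52391842, with 131 in the knockout and 89 in the control, 29.6 and 30.4 times the floors. Its ratio was -0.04 (-0.44 to 0.36). With the authors' folds the proximal value was -0.51, from 11.6 in the knockout and 16.5 in the control, and the distal value -0.0017, from 9.29 and 9.30. Counting error of the pileup thus covered the difference in pileup in both, but the folds of the proximal region differed by more. Of the next 4 distal pairs 3 had ratios above 0 with intervals that exclude it, from 0.48 to 1.05, and 1, at chr19:57132905-57134676, had -0.10 (-0.50 to 0.30). The lowest of the 3, 0.48 at chr19:58982043-58983965, turned to -0.56 with the authors' folds (6.43 in the knockout and 9.47 in the control), and the log2 ratio of local background was 1.16 there. The next 4 proximal pairs had ratios from -0.23 to 0.42, each with an interval that includes 0. One of them, 0.20 at chr19:53179116-53180025, turned to -0.51 with the authors' folds.

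The distal pairs with the highest ratios had high knockout pileups. At chr19:56089791-56091371 the pileup was 107 in the knockout, against 27 in the control, a log2 ratio of 1.39 (0.77 to 2.06). The log2 ratio of local background was 1.14 there, and the folds were 6.23 in the knockout and 4.75 in the control. Chr19:58878638-58880594 had 137 in the knockout and 39 in the control, a ratio of 1.21 (0.69 to 1.77), with a background ratio of -0.57. Its fold was 12.1 in the knockout, against 3.59 in the control, so the paired peaks differed on both scales. Pileup and fold were read at each peak's own summit, which need not be the same position in both lists. Chr19:58657779-58659380 had 89 against 27, a ratio of 1.12 (0.49 to 1.80), with a background ratio of 0.75. In these 3 pairs the knockout peak was longer as well, at 1581, 1957 and 1602 bp, against 391, 424 and 737 bp in the control. The knockout peak was the longer one in 63.5% of all distal pairs and in 61.5% of pairs over the genome. The highest proximal ratio was 0.96 (0.11 to 1.87), at chr19:52431725-52432243, with a pileup of 47 in the knockout and 16 in the control.

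The lowest ratio in either cluster was -1.21 (-2.07 to -0.37), at the proximal pair chr19:53442691-53443037, with a pileup of 21 in the knockout, against 32 in the control. The local backgrounds, 4.42 fragments in the knockout and 2.93 in the control, were at or near the floors. The lowest distal ratio was -0.77 (-1.52 to -0.03), at chr19:56814393-56814793, with 31 in the knockout and 35 in the control. These extremes were picked from 610 pairs, and their counting intervals do not allow for that.

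Of the 115 strong knockout-only members 44 had a control peak within 1000 bp and 71 had none, and of the 7 strong control-only members 5 had a knockout peak within 1000 bp and 2 had none. The same shares over the genome and in the comparison stretch were not determined. The most enriched distal knockout-only peak, at chr19:57959791-57960207, had 45 fragments (32.8 to 60.2) and an 8.48-fold enrichment, and the nearest control peak was 193 bp away. The next, at chr19:58287058-58287515, had 44 (32.0 to 59.1) and 8.30, with a control peak 315 bp away. Proximally chr19:52783059-52783426 and chr19:53414556-53414989 each had 37 fragments (26.1 to 51.0) and a 7.01-fold enrichment, with control peaks 778 and 106 bp away in that order. The next proximal one, at chr19:52803650-52804068, had 36 fragments and a 6.82-fold enrichment, and the nearest control peak was 1380 bp away. The most enriched control-only peak of the clusters, at chr19:53849387-53849789, had 28 fragments (18.6 to 40.5) and a 7.39-fold enrichment, with a knockout peak 419 bp away. In the distal cluster the leading control-only peak, at chr19:58363913-58364382, had 22 fragments (13.8 to 33.3) and a 5.86-fold enrichment, and the nearest knockout peak was 2375 bp away.

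Spacing between neighbouring summits was similar in the clusters. The median distance was 2385 bp in the knockout and 2237 bp in the control in the distal cluster, and 2163 and 2371.5 bp in the proximal cluster. In the comparison stretch the medians were 1890 and 2112 bp, and in the cluster on the short arm 3394 and 4168 bp. Within 2 kb of the next summit lay 40.9% of distal and 45.6% of proximal spacings in the knockout, against 45.7% and 41.5% in the control. The proximal cluster thus had the closer spacing in the knockout and the distal cluster in the control.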

How the data were processed

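Per the submitters' processing notes, FastQC, BWA and MACS2 were the tools and hg19 the build; their versions and settings are not given in the sources used here. Each immunoprecipitated library has 1 deposited list, which gives each peak's pileup signal as unscaled fragments at the summit, the authors' fold enrichment as a ratio to local background, and −log10 p and q values from the caller. Library totals were not listed, so depth is known only relatively.

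Lists were matched to samples by genotype and antibody words. Local background was recomputed as pileup plus 1, divided by fold, minus 1. With it the Poisson tail gave the listed −log10 p to within 0.000573. Peaks sharing at least 1 bp were shared, and overlaps that were exclusive in both directions formed pairs over the whole genome. For depth-scaled significance, pileups were divided by the ratio of floors and rounded. Proportions have Clopper-Pearson intervals and ratios of counts conditional binomial ones. Overlap and ratio steps were tested on simulated data. Named regions per cluster were the 5 pairs with the highest mean pileup over floor, the 3 highest and 3 lowest ratios (pileup of at least 20 in 1 list), the 3 most enriched list-only strong peaks per list and the 2 longest per list. The clusters and rules were chosen with earlier results of these data known. Gene names come only from RefSeq gene order on GRCh38.p14, and no coordinates were converted. Python 3.11.15, numpy 2.4.6, pandas 2.3.3 and scipy 1.17.1 were used.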

Additional observations from a re-analysis of the deposited data

How the results depend on the processing

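With 1 library per genotype, differences between genotypes and between these libraries cannot be told apart, and only relative depth is known. Of 65 alternatives over 16 results, 32 stayed within 1.5 times (counts) or the 95% interval, 33 left them and 0 reversed. Of 50 alternatives over 28 values of named regions, 43 stayed and 7 left, and with the authors' folds 3 log2 ratios of under 1.5-fold turned sign, to -0.51 (chr19:53179116), -0.56 (chr19:58982043) and -0.0017 (chr19:58966094). The cause was not tested unless the alternative's construction shows it. Keeping peaks with a −log10 q of at least 10 gave density ratios of 0.805 in the knockout and 0.904 in the control, covered shares of 10.4% and 6.71%, median pileups of 9.27 and 10.6 times the floor and shares of peaks of 1 kb or longer of 17.9% and 18.1%. A fold of at least 5 gave density ratios of 0.774 and 0.854 and covered shares of 8.70% and 7.05%. Equal numbers of peaks gave a knockout density ratio of 0.779. Scaled by the list's own median pileup, which changes the unit, the medians were 0.972 and 0.960. The knockout-only share was 3.56% at a −log10 q of 20, 26.0% at 5, 12.2% at a fold of 5, 24.96% with 50% reciprocal overlap, 10.2% with no control peak within 1000 bp and 7.91% at the control's depth. The control-only share was 0% at 20, 7.33% at 5, 4.48% at a fold of 5, 12.7% with 50% reciprocal overlap and 0.452% with no knockout peak within 1000 bp. Centring on all pairs moved the clusters' median log2 ratio to 0.0071 by construction. Pairs at least 1.5-fold higher or lower numbered 9 and 9 among pairs strong in both lists, and at 2-fold 5 and 1. The run beside PEG3 kept 8 of 13 peaks at a −log10 q of 10 and 4 at a fold of 5, and its alternatives and those of the distal cluster's ratio were chosen after seeing the data. No paired analysis was possible because the genotypes had a single library apiece.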
